A study of Arabidopsis thaliana with 8 samples.

Results

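The NPF family of Arabidopsis was followed in hypocotyls in which the strigolactone signalling repressor SMXL7 had been activated for a few hours. Its members here were 36 loci of 37573 in the count table, chosen by family membership from a list drawn up with results of the same DEX against mock contrast in view, so their values are given as a description and not as tests. The material was the hypocotyl of 4-week-old soil-grown plants carrying SMXL7pro:SMXL7d53-GR in the wild-type background. Both treatments therefore shared a transgene in which the SMXL7 promoter drives SMXL7d53, a strigolactone-insensitive form of the protein, joined to the glucocorticoid receptor domain that dexamethasone (DEX) binds. The plants received 15 µM DEX, or an equal amount of DMSO (mock), through watering and were harvested 5 h later, giving 4 libraries per treatment. How many independent lines the plants came from, and whether plants were pooled, is not given in the sources used here. Untransformed plants treated with DEX were not analysed here, so an effect of DEX itself and an effect of the fusion protein cannot be told apart.

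NPF proteins, also called NRT1/PTR proteins, are membrane carriers driven by the proton gradient. They were first known as low-affinity nitrate carriers and as carriers of di- and tripeptides, and individual members also move abscisic acid (ABA), gibberellins or glucosinolates. Some load nitrate into the xylem or phloem or take it back out, and the hypocotyl is the conduit between root and shoot. RefSeq gives an NPF name to 22 of the 36 loci and none to the other 14. AT3G16180 is written here as NRT1.12, and the remaining unnamed loci are written by their locus identifiers. For counting, an unnamed locus was placed with the subfamily of the named protein to which its own protein was most similar. That placement is weak for AT5G13400, whose closest named protein, NPF8.2, matched it at 42.8% of aligned positions. It is as weak for AT3G53960 and AT2G37900, which NPF5.14 matched at 42.6% and 43.3%.

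Libraries held between 47976811 and 85953231 counts, the deepest being mock replicates 3 and 1. SMXL7 itself, whose reads come from the endogenous gene and the transgene alike, gave 33487 ± 1913 normalised read counts in mock and 24703 ± 257 in DEX (SD, n = 4). Vascular and periderm markers were present in all libraries, 12 of 12 passing the low-count filter, with summed normalised counts of 48310 to 51745 in mock and 54038 to 57530 in DEX. ATHB8, the 1 of these called higher, had a log2 fold change of 0.78 (SE 0.06). Of 13 root markers, 6 (COBL9, EXPA7, EXPA18, RHD6, SMB and BRN1) had at most 10 reads in every library. The summed root list ranged from 1613 to 1752 in mock and from 1192 to 1415 in DEX, most of it from SCR. Of 9 leaf, stomatal and meristem markers, the stomatal genes TMM, SPCH and FAMA were called lower in DEX, while the meristem gene STM had a log2 fold change of 0.53 (SE 0.04). The summed list, most of it from the photosynthesis gene RBCS1A, ranged from 70585 to 94736 in mock and from 60369.5 to 68815 in DEX. The RNA came from whole organs, in which fewer cells of a type and less RNA per cell cannot be told apart.

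Of the 36 members, 32 passed the low-count filter and 28 of those had a mean normalised count above 50. A gene was called where the adjusted p of edgeR's quasi-likelihood test was under 0.01, the difference exceeded 1.5-fold in either direction and the mean normalised count exceeded 50. By these criteria 1 member, NPF4.3, was higher in DEX, where 4.64% of the 21289 genes tested were called higher. In the other direction 3 members, AT3G45700, AT3G53960 and NPF6.4, were lower, where 1.81% of all tested genes were. Since the contrast was in view when the members were listed, nothing is read from these shares. The log2 fold changes of the tested members spread evenly about 0, with 16 above and 16 below and a median of -0.005, beside a median of -0.006 over all genes tested. They lay within 0.3 of 0 for 19 of the 32, and standard errors ran from 0.04 to 0.28.

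**Figure D1:**
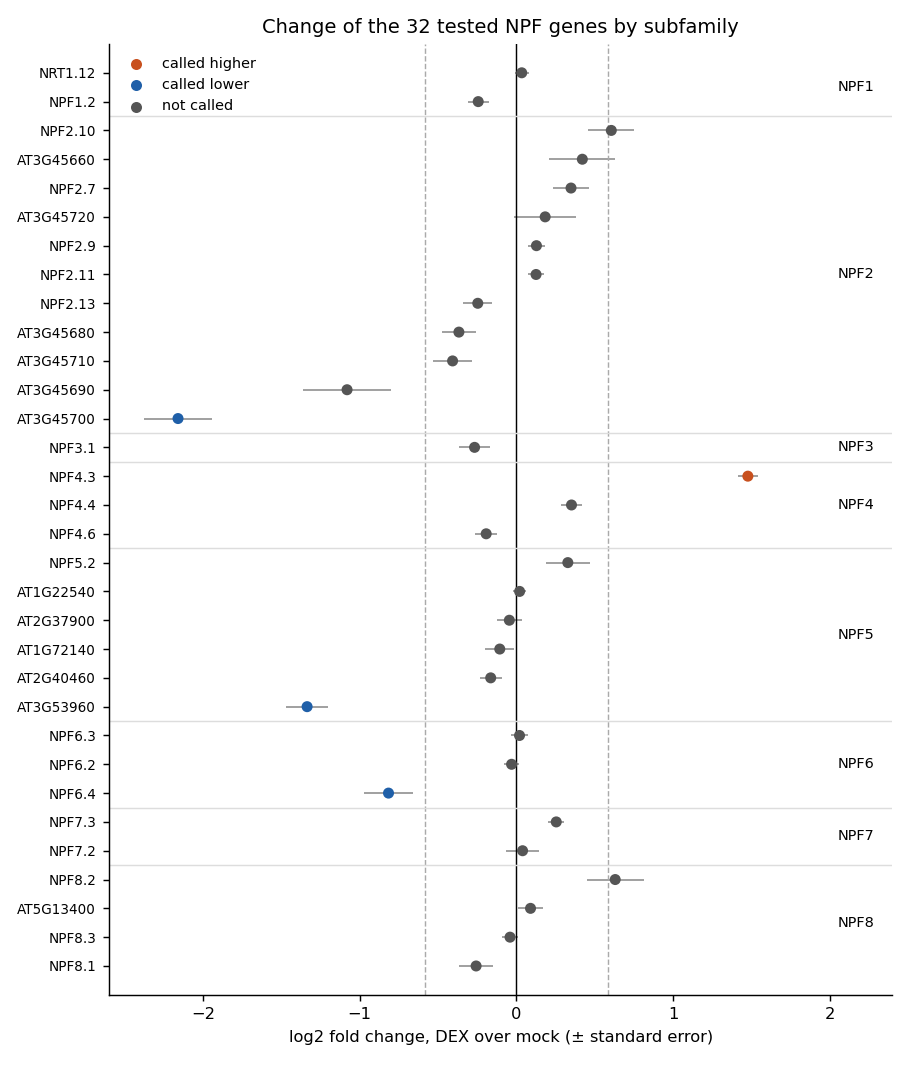
Log2 fold change of DEX over mock for the 32 tested NPF members (horizontal axis, log2 units, bars ± 1 standard error), grouped by subfamily, with unnamed loci placed by their closest named protein. Dashed lines mark a 1.5-fold difference, and the 1 orange and 3 blue points are the members called higher and lower.

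NPF4.3 (AT1G59740, chromosome 1) was the member called higher. Its normalised counts were 3596, 3177, 3715 and 3035 in the mock libraries and 8862, 9295, 9732 and 9821 in the DEX libraries. Every DEX library was thus well above every mock library, and the spread within a treatment was small. The DEX mean was 2.79-fold the mock mean, with a log2 fold change of 1.48 (SE 0.06). NPF4.3 supplied 4.55% ± 0.36 of all normalised reads of the 36 members in mock and 11.5% ± 0.42 in DEX (SD, n = 4). Summed over the 36 members, normalised counts were 74264 ± 3333 in mock and 81814 ± 3446 in DEX. NPF4.3 is also on the list of auxin-upregulated genes that the study used.

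Among the members called lower, AT3G45700 had the greatest fold difference. This gene lies on chromosome 3 in a tandem array of family members and stands on the study's list of root pericycle markers. It had 141, 201, 211 and 202 normalised counts in mock and 30.2, 33.7, 65.3 and 38.5 in DEX. No DEX library came near the mock range, although the gene is of modest abundance. The mock mean was 4.503-fold the DEX mean and the log2 fold change was -2.16 (SE 0.22). Leaving out any 1 library moved it between -2.46 and -2.04. None of the 5 root markers tested was called. Of the endodermal ones, SCR had a log2 fold change of -0.41 (SE 0.08), CASP2 of -1.30 (SE 0.44), ESB1 of -0.29 (SE 0.17), CASP1 of -0.27 (SE 0.36) and MYB36 of 0.04 (SE 0.11), and SCR alone had all DEX libraries below all mock libraries. Their part in the AT3G45700 value was not tested.

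AT3G53960, an unnamed locus of chromosome 3 whose closest relative in the family is AT2G37900, was more abundant. Its normalised counts were 1979.8, 2476, 1832 and 1703 in mock and 833, 749, 909.9 and 669.7 in DEX. The groups did not overlap, and mock replicate 2 was the highest library. The mock mean was 2.53-fold the DEX mean, with a log2 fold change of -1.33 (SE 0.13).

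NPF6.4 (AT3G21670, chromosome 3) belongs to the subfamily of the nitrate carrier NPF6.3. It had 173, 294, 211 and 190.4 normalised counts in mock and 119.7, 126, 109 and 135 in DEX. All DEX libraries lay below all mock libraries, but the mock libraries were uneven, mock replicate 2 standing high. The mock mean was 1.77-fold the DEX mean and the log2 fold change was -0.82 (SE 0.16), and it ranged from -0.91 to -0.65 as single libraries were left out. The stomatal markers that were lower in DEX, TMM at -1.68 (SE 0.17), SPCH at -1.41 (SE 0.15) and FAMA at -0.84 (SE 0.16), were also highest in mock replicate 2. Mock replicate 3, the next highest for NPF6.4, was however the lowest mock library for each of TMM, SPCH and FAMA. MUTE and EPF1, stomatal markers too low to be tested, were lower in every DEX library as well but highest in mock replicate 3. The part of these markers in the NPF6.4 value was not tested.

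**Figure D2:**
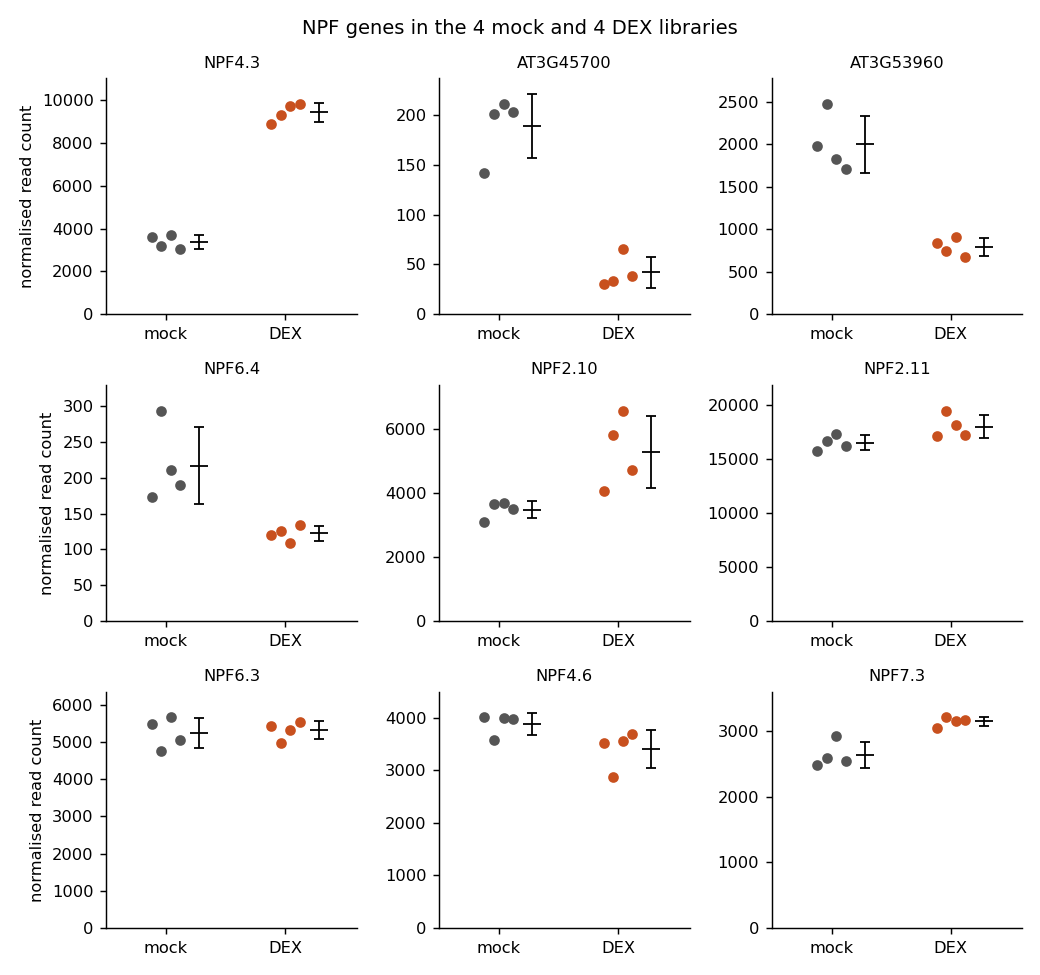
Normalised read counts (vertical axes, from 0) of 9 NPF genes in the 4 mock libraries (grey points) and 4 DEX libraries (orange points), with the mean and SD in black. NPF4.3, called higher, and NPF2.10 and NPF7.3, not called, separate upward. AT3G45700, AT3G53960 and NPF6.4 separate downward, and NPF2.11, NPF6.3 and NPF4.6 do not separate.

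The 250 bases upstream of the annotated start of the 4 called genes are shown because these are the members that differed past the thresholds and the sequences allow the same short elements to be looked for in each. Sequences are from RefSeq's copy of TAIR10.1, written 5′ to 3′ on the gene's strand. Capitals mark matches, on either strand, to ATAACAA, an element bound by the close relative SMXL6, to ACGTG, the core of ABA-responsive elements, or to TGTCTC, an auxin response element. TGTCGG and GGNCCC, a further auxin response element and a TCP factor element, were searched in the same way and had no match in the 4 windows.
NPF4.3, chr1:21967736-21967985, plus strand: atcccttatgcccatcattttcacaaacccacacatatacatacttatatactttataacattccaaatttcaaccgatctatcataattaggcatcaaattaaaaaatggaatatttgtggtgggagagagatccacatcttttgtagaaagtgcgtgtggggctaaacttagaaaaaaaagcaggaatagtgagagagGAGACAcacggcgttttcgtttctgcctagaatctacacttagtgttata
AT3G45700, chr3:16778463-16778712, plus strand: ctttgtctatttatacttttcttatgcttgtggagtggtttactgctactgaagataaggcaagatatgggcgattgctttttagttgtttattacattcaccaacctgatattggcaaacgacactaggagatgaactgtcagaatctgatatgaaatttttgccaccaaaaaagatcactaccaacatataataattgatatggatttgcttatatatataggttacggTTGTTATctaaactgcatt
AT3G53960, chr3:19981087-19981336, minus strand: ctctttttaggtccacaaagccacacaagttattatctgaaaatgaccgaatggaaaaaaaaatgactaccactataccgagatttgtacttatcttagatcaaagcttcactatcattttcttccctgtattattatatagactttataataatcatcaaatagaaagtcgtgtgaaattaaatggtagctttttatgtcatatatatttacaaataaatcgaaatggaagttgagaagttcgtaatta
NPF6.4, chr3:7629206-7629455, minus strand: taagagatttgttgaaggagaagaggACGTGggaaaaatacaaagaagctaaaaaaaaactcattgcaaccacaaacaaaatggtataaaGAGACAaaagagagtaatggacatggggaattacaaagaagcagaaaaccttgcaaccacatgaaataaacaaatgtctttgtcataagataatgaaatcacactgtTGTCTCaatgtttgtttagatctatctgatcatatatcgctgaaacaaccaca

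The windows had little in common. NPF4.3 held 1 match to TGTCTC, 50 bases before the start counted to the far end of the match. NPF6.4 held 2 matches to TGTCTC and 1 to ACGTG, AT3G45700 held 1 match to ATAACAA, and AT3G53960 held none of the 5 elements. Over the promoters of 27443 protein-coding genes of the table, 11.6% held ATAACAA, 22.9% ACGTG, 10.9% TGTCTC, 4.16% TGTCGG and 7.35% GGNCCC. Over the 36 members the counts were 9, 8, 6, 2 and 2. A match of this length is a description of the sequence and does not show that a factor binds there.

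AT3G45700 is 1 of 7 family members in an array of 28069 bases on chromosome 3, TAIR10.1 chr3:16758877-16786945, all on the plus strand. The first gene is NPF2.7, known as NAXT1, a plasma membrane carrier that lets nitrate out of root cells. The others carry no NPF name in RefSeq, and their proteins match one another or NPF2.7 at 62.7% to 85.0% of aligned positions. The closest 2 are AT3G45700 and AT3G45710, at 85.0%, whose transcripts share 86.2% identity over 1754 bases, and the authors kept reads that mapped to 1 place only.

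The 7 genes of the array did not move as a block. NPF2.7 had 418, 368, 394 and 419 normalised counts in mock and 441, 422, 621 and 559 in DEX (log2 fold change 0.35, SE 0.12), so that the DEX libraries all lay above the mock libraries by a small margin. AT3G45660, next to it, had 28.5, 22.4, 31.0 and 32.5 in mock and 35.3, 29.9, 38.3 and 52.6 in DEX (0.42, SE 0.21), with overlapping groups. AT3G45680, on the study's list of cytokinin-upregulated genes, had 905, 884, 1106 and 932 in mock and 607, 889, 758 and 711 in DEX (-0.37, SE 0.11). It was the most abundant gene of the array, and its groups overlapped through DEX replicate 2.

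AT3G45690, immediately upstream of AT3G45700, had 18.5, 18.9, 14.1 and 20.5 normalised counts in mock and 6.299, 7.71, 7.88 and 11.5 in DEX (log2 fold change -1.08, SE 0.28). Its groups did not overlap, but its mean count was below 50. It passed the low-count filter through the mock libraries alone, so a high enough mock value was the condition of its being tested. AT3G45710, the next member of the array, had 232, 179, 220.2 and 262 in mock and 147, 159.9, 169 and 199 in DEX (-0.41, SE 0.13), with overlapping groups. AT3G45720, the last gene, had 35.6, 36.6, 30.3 and 45.8 in mock and 30.2, 39.5, 48.4 and 47.5 in DEX (0.18, SE 0.20). Of the 7 genes AT3G45700 was thus the only one called.

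Summed over the array, normalised counts were 1852 ± 133 in mock and 1551 ± 177 in DEX (SD, n = 4), and the range of the DEX libraries, 1298 to 1707, lay just under that of the mock libraries, 1711 to 2007. AT3G45700 made up 10.2% ± 1.603 of the sum in mock and 2.67% ± 0.78 in DEX.

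**Figure D3:**
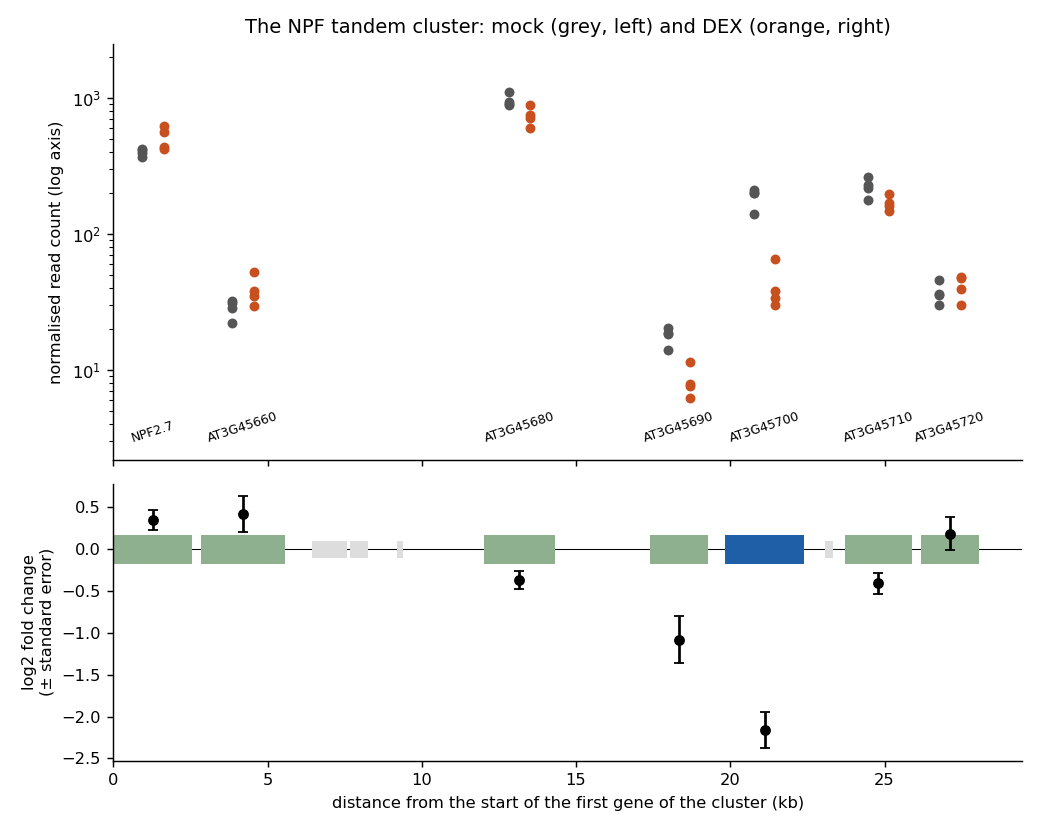
Upper panel, normalised read counts (log axis) of the 7 NPF genes of the array in mock (grey) and DEX (orange) libraries against distance in kb from the start of NPF2.7. Lower panel, their log2 fold changes ± 1 standard error over gene bodies drawn to scale (blue, called lower; green, not called; pale grey, genes outside the family), with AT3G45700 lowest at -2.16.

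The called members were set beside related members as a ratio within each library. NPF4.3 and NPF4.4 share 67.1% of aligned residues. The log2 ratio of their normalised counts was 0.64, 0.43, 0.40 and 0.41 in mock and 1.61, 1.55, 1.59 and 1.63 in DEX, a shift of 1.13. NPF4.4 by itself had 2308, 2358, 2819.6 and 2280.3 normalised counts in mock and 2895, 3185, 3223 and 3178 in DEX (log2 fold change 0.35, SE 0.07), a smaller difference in the same direction with no overlap between the groups.

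AT3G45700 and AT3G45710 had log2 ratios of -0.71, 0.16, -0.06 and -0.37 in mock and -2.29, -2.25, -1.37 and -2.37 in DEX, a shift of -1.82. AT3G53960 and AT2G37900 share 77.5% of residues. Their log2 ratio lay between -1.22 and -0.68 in mock and between -2.53 and -1.94 in DEX, while AT2G37900, on the study's list of markers of a xylem parenchyma cluster of the hypocotyl, had a log2 fold change of -0.04 (SE 0.08). NPF6.4 and NPF6.2, at 54.0% identity, had log2 ratios from -5.58 to -4.83 in mock and from -6.25 to -6.00 in DEX. In each of these 4 pairs the mock and DEX ratios did not overlap. The first gene of each pair was taken because it was called, so this separation repeats the call and adds no support. For the pair of glucosinolate carriers NPF2.10 and NPF2.11, at 82.1% identity, the ratio ran from -2.36 to -2.20 in mock and from -2.08 to -1.47 in DEX. The xylem nitrate carriers NPF7.3 and NPF7.2, at 67.4% identity, gave overlapping ratios of -0.38 to 0.01 in mock and -0.08 to 0.13 in DEX.

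**Figure D4:**
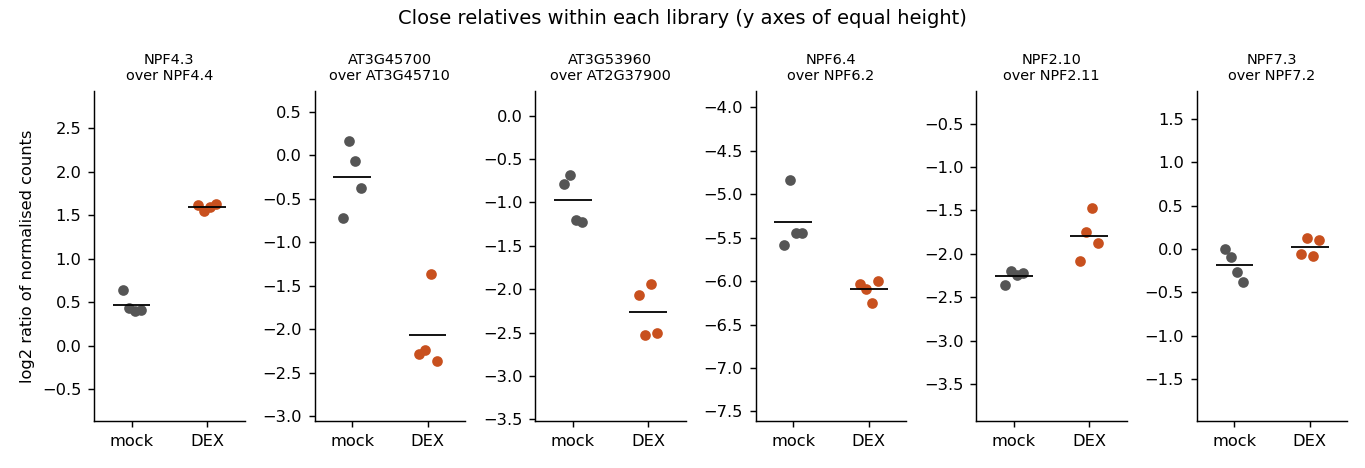
Log2 ratio of normalised counts between 6 pairs of related NPF genes within each library (points, mock grey and DEX orange, bars at the means), on vertical axes of equal height and different offset. The shift from mock to DEX is 1.13 for NPF4.3 over NPF4.4 and -1.82 for AT3G45700 over AT3G45710, and the points overlap for NPF7.3 over NPF7.2.

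The nitrate carriers NPF6.3, NPF7.3 and NPF7.2, like NPF2.7 above, were not called, whereas NPF6.4, of the subfamily of NPF6.3, was called lower. NPF6.3, the nitrate carrier and sensor also called NRT1.1 or CHL1, had 5470.2, 4759, 5662 and 5043 normalised counts in mock and 5417, 4972, 5331 and 5533 in DEX (log2 fold change 0.02, SE 0.06). The 2 ranges lay over one another. NPF7.3, or NRT1.5, which loads nitrate into the xylem, had 2482, 2594, 2922 and 2549 in mock and 3052, 3210.2, 3156 and 3174 in DEX (0.25, SE 0.05). All 4 DEX libraries were above all 4 mock libraries, at a difference under the fold threshold. NPF7.2, or NRT1.8, which takes nitrate back out of the xylem, had overlapping groups (0.04, SE 0.11).

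Nitrate carriers of the phloem stayed within 0.3 of 0 on the log2 scale. They were NPF2.9, or NRT1.9, of root companion cells (0.13, SE 0.05), NPF2.13, or NRT1.7, which exports nitrate from old leaves (-0.25, SE 0.09), and NPF1.2 and NRT1.12, which redistribute nitrate to young leaves (-0.24, SE 0.07, and 0.03, SE 0.05). The DEX libraries of NPF2.13 all lay below its mock libraries, at 281 to 344 against 349.5 to 423. NPF1.2 is on the study's list of leaf phloem parenchyma markers. NPF6.2, with 8529 ± 442 normalised counts in mock and 8353 ± 353 in DEX, had a log2 fold change of -0.03 (SE 0.05).

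Among the members taken here as hormone carriers, NPF4.6 and NPF3.1 were tested and not called. NPF4.6, which imports ABA and was first described as the nitrate carrier NRT1:2, had 4012, 3582, 3990.5 and 3976 normalised counts in mock and 3517, 2875, 3555 and 3689.6 in DEX (log2 fold change -0.19, SE 0.07). Mock replicate 2 lay inside the DEX range. NPF3.1, a gibberellin carrier of the root endodermis, had a log2 fold change of -0.27 (SE 0.10), with overlapping groups. NPF4.1, an importer of ABA and gibberellin, had at most 3.38 normalised counts in a library and was not tested.

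NPF2.10 and NPF2.11, the glucosinolate importers GTR1 and GTR2 that load the phloem, are both on the study's list of jasmonate-upregulated genes. NPF2.10 had 3088, 3646, 3685 and 3492 normalised counts in mock and 4059, 5806, 6575 and 4707 in DEX (log2 fold change 0.61, SE 0.15). All DEX libraries were higher, but they were scattered, with SDs of 273 in mock and 1121 in DEX. The gene passed the fold and count thresholds but not the threshold on the adjusted p, and it was called by DESeq2, at an adjusted p under 0.05, and without DEX replicate 1. NPF2.11 had 15807, 16701, 17394 and 16243 in mock and 17175, 19529, 18198 and 17273 in DEX (0.13, SE 0.05), with overlapping groups. NPF7.2 and AT2G40460 are on the same jasmonate list and had log2 fold changes of 0.04 (SE 0.11) and -0.16 (SE 0.07).

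The peptide carriers spanned a wide range of levels. NPF8.3, or PTR2, had 2431 ± 155 normalised counts in mock and a log2 fold change of -0.04 (SE 0.05). NPF8.1, or PTR1, was at 314 ± 18.7 and -0.26 (SE 0.11). NPF8.2, or PTR5, had 31.4, 35.4, 32.4 and 42.2 in mock and 45.4, 46.2, 58.6 and 66.7 in DEX (0.63, SE 0.18), with separate groups and a mean below 50 once all libraries were averaged. A gene on the opposite strand, AT5G01175, covers 9.07% of the exon bases of NPF8.2 and had 377 to 627 reads. Reads in that overlap were left out of both counts. NPF5.2, or PTR3, had a log2 fold change of 0.33 (SE 0.14), with overlapping groups.

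The remaining unnamed members, AT1G22540 (0.02, SE 0.04), AT1G72140 (-0.11, SE 0.09), AT2G40460 and AT5G13400 (0.09, SE 0.08), all had overlapping groups. Over the 32 tested members, 6 (NPF2.7, NPF2.10, NPF4.3, NPF4.4, NPF7.3 and NPF8.2) had all DEX libraries above all mock libraries, where 16.2% of all tested genes did. In the other direction 4 (NPF2.13, AT3G45700, AT3G53960 and NPF6.4) had all DEX libraries below, where 15.1% of all tested genes did, with AT3G45690 set aside because it was tested through its mock libraries alone. Nothing is read from these counts.

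Members that could not be tested were rarely detected. NPF2.12, or NRT1.6, which carries nitrate to the developing seed, had at most 11.3 normalised counts in a library. AT5G62730 had 1.43, 2.36, 0 and 2.41 in mock and 0 in every DEX library, and NPF4.2 had no read in any library.

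The level of the members in mock was compared per length of exon, as TMM-normalised CPM per kb. NPF2.11 led at 115 ± 4.70, followed by NPF6.2 at 58.1 ± 3.01 and NPF6.3 at 39.2 ± 3.06 (SD, n = 4). On this measure each of these 3 stood clear of the member below it, as no mock library of the lower gene reached any of the higher. The length used holds all exon bases, although reads on bases shared with another gene were left out. That lowers the levels of NPF2.9, NPF3.1 and NPF2.10, with 30.7%, 22.2% and 17.0% of exon bases overlapped. NPF6.3 has no such overlap, so whether it lies above NPF2.9, the member below it, is not settled. From NPF2.9 at 27.5 ± 1.21 down to AT1G22540 at 9.58 ± 0.34, the order of neighbouring genes was not resolved, since their ranges overlapped. Genes further from one another in this band, such as NPF2.9 and AT1G22540, did stand apart. NPF4.3, at 25.3 ± 2.44 in mock, sat in this band together with NPF4.6, NPF2.10 and NPF3.1. AT3G45700 and NPF6.4, at 1.64 ± 0.28 and 1.62 ± 0.40, were not distinguishable and were far lower. In all, 16 members were above 10, 11 between 1 and 10, and 9 below 1, and 10 of the 35 neighbouring pairs in the order did not overlap.

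**Figure D5:**
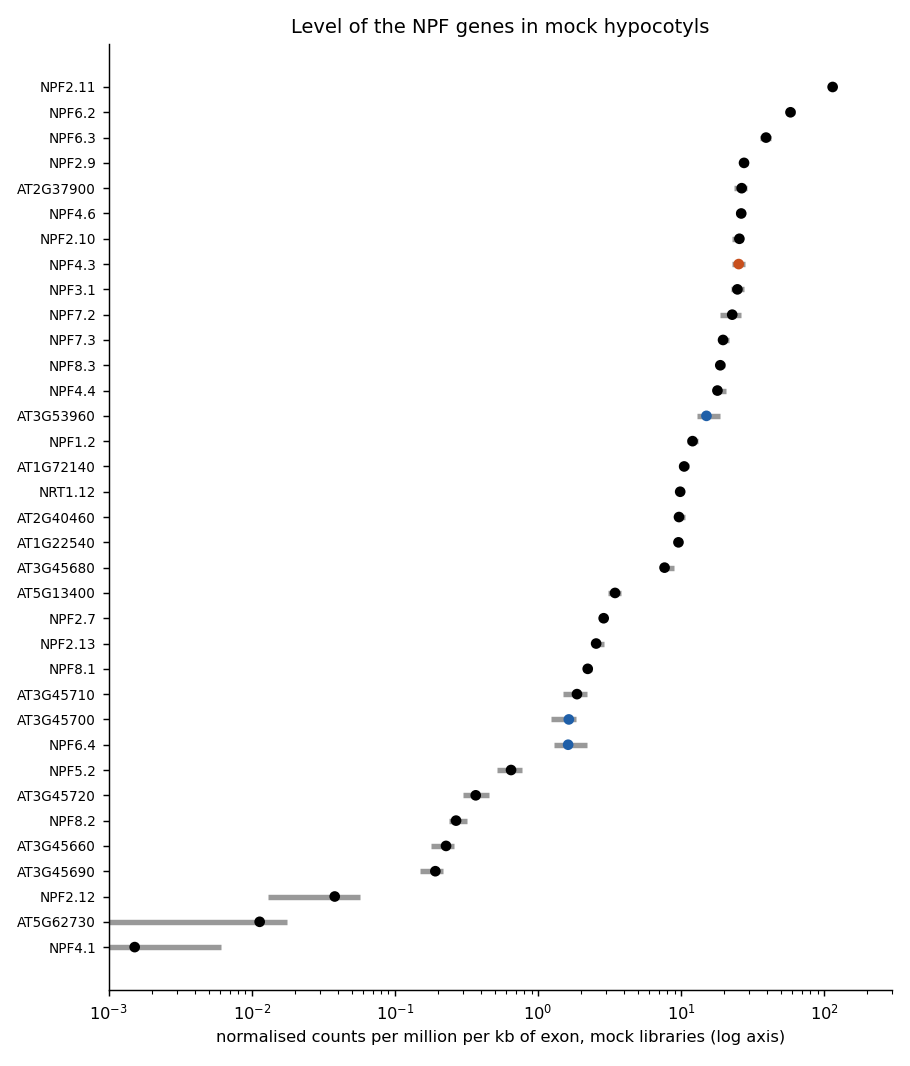
Mean level of 35 NPF genes in the mock libraries (points) with the range over the 4 libraries (grey bars), in TMM-normalised CPM per kb of exon on a log axis. NPF4.2, at 0, is not drawn, bars that reach the left edge include libraries at 0, and orange and blue mark the genes called higher and lower in DEX.

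Antisense or overlapping genes touch the exons of 11 members. The overlap was largest for NPF2.9, with 30.7% of its exon bases under AT1G18890, then NPF3.1 at 22.2% and NPF2.10 at 17.0%. Counting without strand leaves out reads that fall on 2 genes, in mock and DEX libraries alike. None of the 4 called members has such an overlap.

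The other NPF loci of a family list, 17 in number, were compared with the members in the same fit. Of these 10 were tested and 1 was called higher and none lower, where 4.64% and 1.81% of all genes tested were. The called locus was AT1G22570, unnamed and in the NPF5 subfamily by similarity. It rose from 141, 170.0, 133 and 152 normalised counts in mock to 218, 276, 311 and 259 in DEX (log2 fold change 0.85, SE 0.12, edgeR adjusted p = 0.000154), with all 4 DEX libraries higher. The related AT1G22550, at 81.5% identity, had a log2 fold change of -0.17 (SE 0.08, edgeR adjusted p = 0.119). NPF5.14 passed the adjusted p without the fold threshold (-0.36, SE 0.06, edgeR adjusted p = 0.000612). The median of the 10 was -0.10.

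Genes around the NPF carriers were taken from lists of the nitrate and hormone transport pathways. Beside each count of called genes on these lists stand the shares over all genes tested, 4.64% called higher and 1.81% lower. Among 8 genes of the high-affinity NRT2 and NRT3 systems, 5 were tested and NRT2.6 fell, from 448 ± 109 to 209 ± 44.1 normalised counts (SD, n = 4), at a log2 fold change of -1.09 (SE 0.20, edgeR adjusted p = 0.00254). Without DEX replicate 4 it was no longer called, at -1.05 (edgeR adjusted p = 0.0112). NRT2.1, the main inducible high-affinity carrier of roots, was at 0.56 (SE 0.13, edgeR adjusted p = 0.00473), under the fold threshold, at 163 ± 28.7 counts in mock. The median of the 5 was 0.06.

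None of 12 genes of nitrate assimilation passed all 3 criteria, while 6 passed the adjusted p above 0 and 1 below 0, with a median of 0.19. By the adjusted p alone, 10.9% of all genes tested passed above 0 and 8.69% below 0. The 2 with the smallest p were GLN1-1, a cytosolic glutamine synthetase (0.45, SE 0.05, edgeR adjusted p = 1.65e-05), and G6PD3, a plastid glucose-6-phosphate dehydrogenase (0.41, SE 0.05, edgeR adjusted p = 8.84e-05). NIA2, the main nitrate reductase, was picked out after its values were seen because it lay just under the fold threshold, at 0.58 (SE 0.08, edgeR adjusted p = 0.000264). It had 37127 ± 3246 normalised counts in mock and 55591 ± 6046 in DEX. It was called in 6 of 17 settings, the setting without a fold threshold among them. GLU1, the leaf ferredoxin-dependent glutamate synthase, was the member below 0 (-0.47, SE 0.07, edgeR adjusted p = 0.00031).

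Of 19 nitrate signalling genes, CBL1 was called higher and LBD39 lower, with a median of -0.06. By the adjusted p alone, 3 of the 19 passed above 0 and 5 below 0, where 10.9% and 8.69% of all genes tested did. CBL1, a calcium sensor that acts with the kinase CIPK23 on NPF6.3, went from 677 ± 47.9 to 2652 ± 458 normalised counts (log2 fold change 1.97, SE 0.12, edgeR adjusted p = 2.11e-06). CIPK23 itself was at 0.11 (SE 0.05, edgeR adjusted p = 0.0968). LBD39, a repressor of nitrate-responsive genes, went from 3801 ± 229 to 2150.1 ± 119 (-0.82, SE 0.05, edgeR adjusted p = 2.82e-07). None of the 11 tested CLC and SLAC family anion channels was called, and their median was -0.12. The 2 with the smallest p were CLCA, the vacuolar nitrate-proton exchanger (-0.30, SE 0.04, edgeR adjusted p = 0.000111), and CLCE (-0.39, SE 0.06, edgeR adjusted p = 0.000537).

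ABA and gibberellin carriers outside the NPF family had the greatest fold differences of these lists, with 3 of 6 tested called higher, none lower and a median of 0.74. Over all genes 4.64% were called higher, and the list was drawn up with the contrast known, so the count is a description. DTX50, an ABA exporter, had 674, 1017, 960.5 and 1212 normalised counts in mock and 6939.9, 8009.6, 10599 and 8153 in DEX (log2 fold change 3.14, SE 0.21, edgeR adjusted p = 2.88e-05). SWEET14, which with SWEET13 moves sugars and gibberellins, rose at lower counts, from 21.5 ± 7.55 to 119 ± 26.3 (2.42, SE 0.23, edgeR adjusted p = 7.62e-06). SWEET13 rose from 168 ± 46.5 to 279.6 ± 32.9 (0.72, SE 0.17, edgeR adjusted p = 0.00814). The call was made in 11 of 17 settings, some of which only loosen a threshold of the main fit. It was lost in the 6 fits that left out a library other than mock replicate 3 or DEX replicate 1 (edgeR adjusted p from 0.0194 to 0.0260). Beside these carriers, the ABA importer NPF4.6 and the gibberellin carrier NPF3.1 of the NPF family were at -0.19 (SE 0.07) and -0.27 (SE 0.10).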

How the data were processed

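Polyadenylated RNA of Arabidopsis hypocotyls was sequenced from 4 mock and 4 DEX libraries prepared with a kit that does not keep strand. The authors aligned reads to TAIR10 with STAR 2.7.8a, keeping reads with 1 mapping place, and counted them per gene in union mode without strand. The deposited raw counts were used for all results. A second deposited table, the authors' signal of counts divided by DESeq2 1.34.0 size factors, served only to compare size factors.

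Genes were filtered with filterByExpr at a minimum count of 10, scaled by TMM and tested with edgeR 4.0.16's quasi-likelihood test (DEX against mock, no block, Benjamini-Hochberg adjustment over the genes tested). A gene was called at an adjusted p under 0.01, a fold difference over 1.5 and a mean count over 50, the thresholds given in the study's methods. Normalised read counts are raw counts divided by the TMM effective library size and multiplied by the mean of those sizes, and standard errors were obtained by dividing each log2 fold change by the root of its F statistic. Levels per kb used merged exons of RefSeq's TAIR10.1 annotation, protein identity came from global alignments in Biopython, and transcript matches from blastn. RefSeq proteins are not printed, as no protein table was used here.

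The members and gene lists were chosen with earlier results of these data known. Values in every library are given for called members, the tandem array and NPF6.3, NPF4.6, NPF2.10, NPF2.11 and NPF7.3. The values by library of NPF4.4, NPF8.2 and AT5G62730 were added after they were seen. Others are given by ranges and counts. Of other lists the called genes are named or, where none was called, the 2 with the smallest p. AT1G22550, NPF5.14, NRT2.1, NIA2, GLU1 and CIPK23 were named after their values were seen. The labels do not say that replicates are separate sets of plants, so p-values measure the spread between these libraries. Every pair of replicates differed beyond sampling noise. Alternatives were DESeq2, other scalings and filters, a replicate block, other thresholds and leaving out each library.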

Additional observations from a re-analysis of the deposited data

Results flagged for a closer look

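In groups of 4 libraries, 8 of 88 groups of tested members and other named genes held a library whose gap to the nearest other, as a share of the group's range, was above Dixon's 95% critical value, where chance gives about 1 in 20. In the mock group, replicate 3, the deepest library, stood high for NPF4.4 (2819.6 normalised counts against 2280.3 to 2358), NPF2.13 (423 against 349.5 to 361) and NPF6.2 (9189.8 against 8277 to 8362). Mock replicate 2 stood low for NPF4.6 (3582 against 3976 to 4012), and mock replicate 1 stood low for AT3G45700 (141 against 201 to 211). In the DEX group, replicate 1 stood low for NPF2.9 (3198 against 3718 to 3733) and NPF4.4 (2895 against 3178 to 3223), and replicate 2 stood high for AT5G13400 (547 against 471 to 477).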

How the results depend on the processing

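The 4 called members were called in all 17 settings, the main fit included. The settings with no fold threshold, an adjusted p under 0.05 or no minimum mean count only loosen a threshold of the main fit. A call of the main fit could not be lost in them. The count of members higher was 1 with edgeR and 2 with DESeq2 or at an adjusted p under 0.05, the second being NPF2.10, and it ranged from 1 to 2 as single libraries were left out. Without a fold threshold the count was 3, with NPF4.4 and NPF7.3, that of other NPF genes was 2 and that of nitrate and hormone transport genes 21 in place of 6. As single libraries were left out, the last count ranged from 5 to 9. Over all 21289 genes tested, 2204 were called higher and 1766 lower without a fold threshold, beside 987 and 386 with it. The replicate block gave 1 member higher, 3 lower, 1 other NPF gene and 6 nitrate and hormone transport genes, the same as without it, and it changed no call among the members. Replicate numbers are shared between treatments without pairing them: deviations of same-numbered libraries correlated at -0.01 to 0.07, and 0 of the 4 DEX libraries correlated best with its own number. All 512 alternative log2 fold changes of tested members moved by less than the spread between replicates. Those of the settings that only loosen a threshold equal the main values by construction and tell nothing about this. Of the levels per kb under 2 alternatives, 44 moved by less than that spread and 28 by more. Of the tested members 4 had mean counts of 50 or less and, with the 4 members that were not tested, are limited by depth.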

Other observations

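AT3G07835, which overlaps NPF2.10, and AT1G68568, which overlaps NPF3.1, were listed at 0 in every library. Reads that fall on 2 genes are left out of the counts, so these zeros are no measure of expression. AT1G18890, which overlaps NPF2.9, had 1183 to 2403 reads. Of the 36 members, 25 have exons that no other annotated gene overlaps.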
